A study of Mus musculus with 12 samples.

Results

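The mouse epidermis builds its water barrier from ceramides and related lipids, and 10 genes of that pathway were followed here, out of 45777 genes in the deposited table. They were Degs2, Pla2g4d, Alox12b, Aloxe3, Cers3, Elovl4, Abca12, Pnpla1, Cyp4f39 and Ugcg, matched by gene symbol, and all 10 were found. Degs2 and Pla2g4d were selected on their low CPM and TPM in the VtA libraries of these same data, so their differences between VtA and the other groups are given as a description with no test. The other 8 were picked for their role in the pathway, with earlier results of these data known.

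RNA was sequenced from whole hindlimb tissue of mice in 3 groups of 4 libraries. VtA mice had lymph node transfer together with ABTAA, an antibody that activates the endothelial receptor Tie2; VLNT mice had lymph node transfer without it; and LE mice had lymphedema. All groups share the hindlimb as tissue, and the labels give no strain, age, time point, dose or genotype, and do not say whether transferred mice also carried lymphedema. Libraries are named by group and number, VtA1 to VtA4, VLNT1 to VLNT4 and LE1 to LE4. Whether replicates are separate animals is not stated in the labels, and p-values here reflect variation among libraries that could be technical in part.

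As keratinocytes leave the basal layer they make ceramides with very long acyl chains, add linoleate to the far end of the chain, and load the product as glucosylceramide into lamellar granules. At the skin surface, lipoxygenases oxidise the linoleate and the ceramide is bound to the cornified cell, forming a lipid envelope. Inherited loss of several of these enzymes causes ichthyosis, a disorder of scaling, leaky skin.

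The libraries held 56.04 to 72.54 M counts, and they differed widely in how much epidermis they contained. Krt5 and Krt14, the keratins of basal keratinocytes, together had 47, 20903, 170151 and 108511 counts in VtA1 to VtA4. They had 609475, 460361, 694414 and 256567 counts in VLNT1 to VLNT4, and 1014410, 752800, 594225 and 138 counts in LE1 to LE4. VtA1 and LE4 thus held almost no keratinocyte RNA, and the other 3 VtA libraries held less than any VLNT library. LE1 stood apart in another way: mitochondrial transcripts made up 0.433% of its reads, against 7.62% to 25.9% elsewhere, and its ratio of suprabasal keratins (Krt1 plus Krt10) to Krt5 plus Krt14 was 0.212, against 0.741 to 18.9 in the other 11 libraries.

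Markers of keratinocytes and of other tissues in the piece also varied between libraries, and most of their ranges overlapped between groups. The summed TPM (a unit that allows for library size and gene length) of 10 spinous and granular keratinocyte markers ranged from 16.6 to 5310 in VtA, 6630 to 16700 in VLNT and 5.21 to 16800 in LE, and Lce3c was at 0 counts in VtA1, VtA2 and LE4, as were Ivl and Lce1a1 in LE4. The same sum over 7 skeletal muscle markers ranged from 93900 to 131000 in VtA, 33500 to 113000 in VLNT and 9550 to 126000 in LE. Over 5 hair follicle markers it ranged from 0.0241 to 49.7 in VtA, 0.609 to 2960 in VLNT and 0.0288 to 10800 in LE. Over 5 macrophage markers it ranged from 97.6 to 656 in VtA, 310.0 to 1180 in VLNT and 62.7 to 2680 in LE. The part of these other tissues in the differences below was not tested. In whole tissue, fewer keratinocytes and less RNA of a gene per keratinocyte cannot be told apart from the counts alone, so each level below is given as CPM and again per Krt5 plus Krt14 count.

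**Figure D1:**
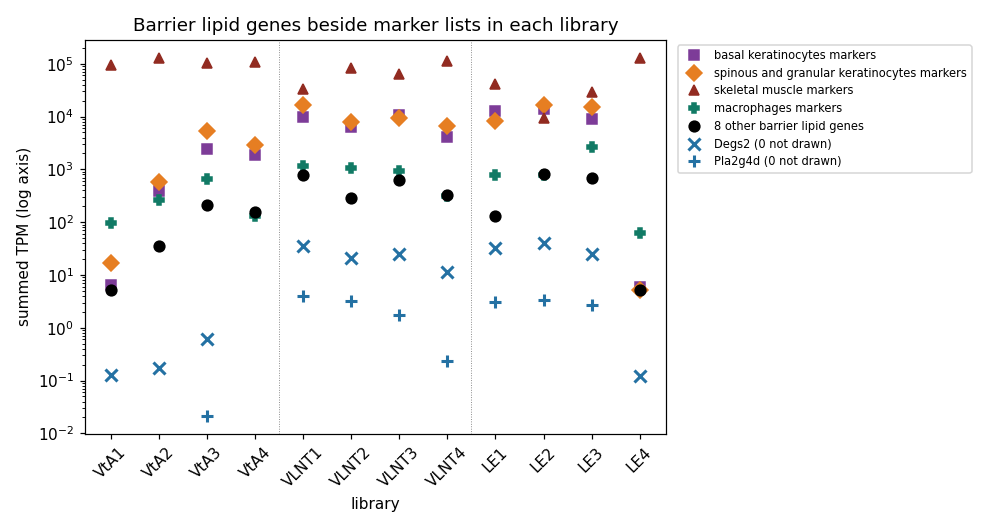
Summed TPM of marker lists, of the 8 other barrier lipid genes, and of Degs2 and Pla2g4d in each library (log axis; libraries run from VtA to VLNT to LE). The sum of the 8 genes is lowest in VtA1 (5.28 TPM) and LE4 (5.25 TPM), where the keratinocyte lists are lowest too. Cyp4f39 and Ugcg make up 89.9% of that sum in VtA1 and 94.5% in LE4. Degs2 is at 0.61 TPM in VtA3, where basal keratinocyte markers sum to 2450.

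The members lie on 8 chromosomes (mouse build GRCm38.p6, the assembly behind mm10). Degs2 spans chr12:108686792-108702306 on the minus strand and overlaps Evl and Gm33467 on the opposite strand. Pla2g4d spans chr2:120265866-120289069 on the minus strand, inside a cluster of cytosolic phospholipase genes with Pla2g4b, Pla2g4e and Pla2g4f, and overlaps Gm52560. Alox12b (chr11:69157072-69169791) and Aloxe3 (chr11:69125417-69149115) are plus-strand neighbours, 7.96 kb apart. Abca12 on chromosome 1 overlaps Gm39659. The strand setting of the counting is not given in the sources used here, so reads of Degs2, Pla2g4d and Abca12 could be mixed with those of the genes they overlap.

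Promoter sequence was taken from RefSeq (GRCm38.p6), 250 bases before to 50 after the start of the gene, and was at hand for 9 of the 10 members, all except Aloxe3. The promoters of the genes chosen for their loss in VtA are printed with that of Alox12b, which kept reads in every library, so that the windows can be set side by side. They are chr12:108702257-108702556 (Degs2), chr2:120289020-120289319 (Pla2g4d) and chr11:69156822-69157121 (Alox12b), each read on its gene's strand. Capitals mark matches on either strand to a GC box (GGGCGG, seen here as CCGCCC) or a TATA box (TATAAA, seen here as TTTATA).
Degs2: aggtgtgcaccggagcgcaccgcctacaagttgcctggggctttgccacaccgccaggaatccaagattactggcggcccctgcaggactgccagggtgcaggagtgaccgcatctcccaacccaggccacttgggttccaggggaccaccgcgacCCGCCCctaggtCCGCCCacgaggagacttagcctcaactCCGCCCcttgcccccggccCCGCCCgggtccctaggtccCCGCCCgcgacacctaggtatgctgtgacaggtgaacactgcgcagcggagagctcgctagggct
Pla2g4d: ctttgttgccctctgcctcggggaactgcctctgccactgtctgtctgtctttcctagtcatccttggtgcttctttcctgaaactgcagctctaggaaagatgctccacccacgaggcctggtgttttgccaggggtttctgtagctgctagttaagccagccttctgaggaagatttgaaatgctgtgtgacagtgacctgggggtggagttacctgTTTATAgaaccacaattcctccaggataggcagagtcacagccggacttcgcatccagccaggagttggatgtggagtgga
Alox12b: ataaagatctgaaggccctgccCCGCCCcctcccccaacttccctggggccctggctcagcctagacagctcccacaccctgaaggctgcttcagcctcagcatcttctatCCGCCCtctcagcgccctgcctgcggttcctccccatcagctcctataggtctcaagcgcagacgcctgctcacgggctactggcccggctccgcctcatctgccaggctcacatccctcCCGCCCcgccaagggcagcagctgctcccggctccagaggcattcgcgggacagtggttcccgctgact
The windows differ in type: the Degs2 window held 5 GC boxes, the Alox12b window 3 and the Pla2g4d window 0, while the Pla2g4d window held 1 TATA match, with its first base 31 before the start. GC content was 67.7% in the Degs2 window, 52.7% in the Pla2g4d window and 66.0% in the Alox12b window, against a median of 52.7% over 32851 mouse promoters of the same length. A GC box was found in 4 of the 9 member promoters and in 35.7% of all promoters, a TATA box in 1 of 9 and 13.6%, and a CCAAT box in 2 of 9 and 37.4%. The AP-1 motif (TGANTCA) was in 0 of 9 and 7.81%, and AACCNGTT, the motif of grainyhead-like factors, in 0 of 9 and 2.09%. A match is a string of letters in this window and no measured site.

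Degs2 encodes a desaturase and hydroxylase that turns dihydroceramide into phytoceramide, a class rich in skin. Its level in CPM (counts scaled to library size, adjusted by TMM) was 0.176, 0.172, 0.473 and 0 in VtA1 to VtA4. It was 22.4, 15.7, 15.4 and 8.86 CPM in VLNT1 to VLNT4, and 42.1, 18.4, 13.01 and 0.38 CPM in LE1 to LE4. All 4 VtA libraries lay below all 4 VLNT libraries, and LE4, with almost no keratin, was the one library outside VtA at the VtA level. VtA4 had 0 counts of Degs2, which allows up to 0.0515 CPM, although it held 108511 counts of Krt5 plus Krt14. Degs2 averaged 0.205 ± 0.196 CPM in VtA and 15.6 ± 5.54 CPM in VLNT (SD, n = 4 each), a log2 fold change of -6.21 ± 1.29 (SE) that is descriptive because it chose the gene. Summed over libraries, 50 counts in VtA against 4765 in VLNT put Degs2 in VtA at 1.42% of its VLNT rate (95% exact interval 1.05 to 1.88, counting error only).

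Pla2g4d encodes cytosolic phospholipase A2 delta, an enzyme of stratified epithelia that frees fatty acids from membrane phospholipids. It had 0, 0, 3 and 0 counts in VtA1 to VtA4. It had 476, 438, 214 and 29 counts in VLNT1 to VLNT4, and 446, 374, 350 and 0 counts in LE1 to LE4. A count of 0 allows up to 0.0755 CPM in VtA1, 0.0575 in VtA2, 0.0515 in VtA4 and 0.0634 in LE4. VLNT4 was the lowest VLNT library at 0.447 CPM, against 2.56 to 6.25 CPM in the other 3. With 3 counts in VtA against 1157 in VLNT, the rate in VtA was 0.351% of that in VLNT (95% exact interval 0.0723 to 1.03, counting error only), and the fitted log2 fold change of -8.03 ± 1.78 (SE) depends on the prior count and is no bound. These values are descriptive because the low level in VtA chose the gene, and all 3 counts came from VtA3.

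Relative to keratin too, both genes were lower in the VtA libraries that held epidermis. Per 1000 Krt5 plus Krt14 counts, Degs2 had 0.431, 0.2 and 0 counts in VtA2, VtA3 and VtA4. It had 2.804, 2.59, 1.86 and 2.24 in VLNT1 to VLNT4 and 2.1, 2.41 and 2.25 in LE1 to LE3. The VLNT and LE libraries with keratin thus held Degs2 between 1.86 and 2.804 on this scale, and the 3 VtA libraries lay below it, at 0.210 ± 0.216 (n = 3) against 2.37 ± 0.416 in VLNT (SD, n = 4). Pooled over these libraries, Degs2 in VtA was at 6.09% of its VLNT rate per keratin count (95% exact interval 4.40 to 8.21). It was at 6.42% of its LE rate (4.64 to 8.66). These intervals cover counting error only and not the spread among libraries. Pla2g4d per 1000 keratin counts was 0, 0.0176 and 0 in VtA2 to VtA4, against 0.781, 0.951, 0.308 and 0.113 in VLNT1 to VLNT4 and 0.44, 0.497 and 0.589 in LE1 to LE3. Its pooled VtA rate was 1.75% of that in VLNT (0.36 to 5.12, counting error only). A count of 0 of Pla2g4d allows up to 0.1435 per 1000 in VtA2, which is above VLNT4, and up to 0.02765 in VtA4. VtA1 and LE4 were left out of these values because 47 and 138 keratin counts give ratios such as 148.9 per 1000 from 7 counts of Degs2 in VtA1. In edgeR with the keratin count as the offset, the direction for Degs2 rests on leaving VtA1 out. The log2 fold change of VtA over VLNT was 3.84 ± 2.99 (SE) over all 12 libraries and -3.65 ± 1.03 without VtA1 and LE4. That of VtA over LE was 0.030 ± 2.74 over all 12 libraries and -3.57 ± 1.06 without VtA1 and LE4. The plain mean ratio of Degs2 over all libraries was also higher in VtA, at 37.4 per 1000 keratin counts against 2.37 in VLNT. Some other measures of VtA over VLNT were negative over all 12 libraries. The difference in mean log2 count ratio, with 0.5 counts added, was -2.20 for Degs2, and limma on log2 TPM ratios gave -0.89. For Pla2g4d the 2 edgeR offset fits gave -6.14 ± 3.09 and -5.88 ± 1.28, and the count ratio over all 12 libraries gave -2.525. However, limma on log2 TPM ratios over all 12 libraries gave 1.48. It adds 0.1 TPM to each gene, and VtA1 had 0 counts of Pla2g4d beside its 47 keratin counts.

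Over the same libraries both genes were lower in VtA against each keratin used as the reference. Krt14 had 0.508 to 0.82 counts per Krt5 count in VtA2 to VtA4, against 1.15 to 2.91 in VLNT and 1.56 to 7.94 in LE1 to LE3, so the ratio between the basal keratins was itself lower in VtA. Degs2 in LE1 stood out on the other references, at 18.8 per 1000 Krt5 counts against 4.82 to 10.1 in the other VLNT and LE libraries with keratin, and at 9.89 per 1000 Krt1 plus Krt10 counts against 1.7 to 2.502. Without VtA1 and LE4, and with 0.5 counts added, the mean log2 ratio of Degs2 in VtA minus that in VLNT was -5.85 against Krt5 alone, -4.16 against Krt14 alone and -5.27 against Krt1 plus Krt10. Set against Degs1, the widely expressed sister desaturase, which was singled out after its values were seen, Degs2 TPM was 0.756%, 0.863%, 0.979% and 0% of Degs1 TPM in VtA1 to VtA4. The share was 19.4%, 22.5%, 18.1% and 19.1% in VLNT1 to VLNT4 and 33.9%, 19.0%, 13.9% and 0.793% in LE1 to LE4.

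**Figure D2:**
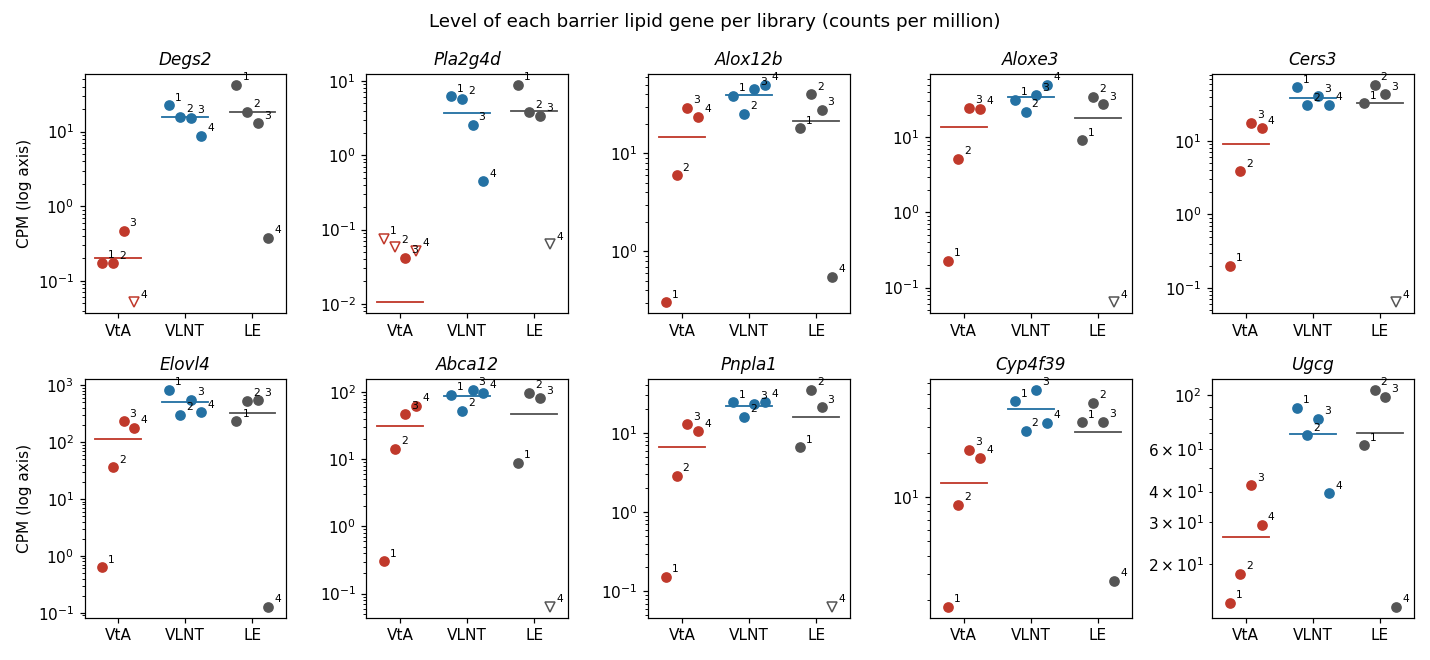
CPM of each of the 10 genes in every library (log axis), with VtA, VLNT and LE from left to right; numbers give the library, lines the group mean and open triangles the level that a count of 0 allows. Degs2 and Pla2g4d have at most 0.473 and 0.0417 CPM in all 4 VtA libraries, apart from the limits drawn for counts of 0. Elovl4 reaches 231 CPM in VtA3.

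The enzymes that make the ultra-long acyl chain and join it to the sphingoid base had lower mean CPM in VtA, with a wide spread. Elovl4, which elongates fatty acids to ultra-long chains, was the most abundant member by TPM in 10 of the 12 libraries. It stood at 0.63, 36.2, 231 and 177 CPM in VtA1 to VtA4. It stood at 836, 301, 548 and 332 CPM in VLNT1 to VLNT4, and at 230.5, 524, 543 and 0.127 CPM in LE1 to LE4. Every VtA library lay below every VLNT library. The means were 111 ± 110.5 CPM in VtA and 504 ± 247 CPM in VLNT (SD, n = 4 each), with a log2 fold change of -2.18 ± 1.57 (SE; adjusted p = 0.653, edgeR's quasi-likelihood test over 19740 genes), which did not pass.

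Cers3, the ceramide synthase that joins these chains to the sphingoid base, had 0.202, 3.89, 17.8 and 14.8 CPM in VtA1 to VtA4. It had 54.0, 30.6, 40.9 and 31.2 CPM in VLNT1 to VLNT4 and 32.5, 58.0, 43.2 and 0 CPM in LE1 to LE4. The VtA and VLNT libraries again did not overlap, with means of 9.17 ± 8.45 CPM in VtA and 39.2 ± 10.9 CPM in VLNT (log2 fold change -2.09 ± 1.39 SE, adjusted p = 0.653, edgeR). Cyp4f39, the mouse omega-hydroxylase of ultra-long fatty acids, ranged from 1.79 to 20.9 CPM in VtA, 28.1 to 53.8 in VLNT and 2.68 to 43.6 in LE (VtA over VLNT, log2 fold change -1.67 ± 0.78 SE).

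The members that finish, transport and oxidise the acylceramide likewise had lower means in VtA than in VLNT. Pnpla1, which moves linoleate onto the hydroxylated ceramide, ranged from 0.151 to 12.9 CPM in VtA, 15.9 to 24.6 in VLNT and 0 to 35.4 in LE. Abca12, the transporter that fills lamellar granules, ranged from 0.302 to 62.5 CPM in VtA, 52.5 to 109 in VLNT and 0 to 97.4 in LE. Alox12b, the 12R-lipoxygenase, had 0.302, 5.98, 28.9 and 23.5 CPM in VtA1 to VtA4, against 38.4, 25.4, 45.05 and 49.7 CPM in VLNT1 to VLNT4 and 18.0, 39.8, 27.8 and 0.549 CPM in LE1 to LE4. Pnpla1 did not overlap between VtA and VLNT, whereas VtA3 exceeded VLNT2 in Alox12b and VtA4 exceeded VLNT2 in Abca12. Aloxe3, the lipoxygenase that acts after Alox12b, ranged from 0.227 to 24.6 CPM in VtA, 21.9 to 49.6 in VLNT and 0 to 34.6 in LE.

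Ugcg, glucosylceramide synthase, is made in many tissues besides epidermis. It had 13.9, 18.3, 42.5 and 29.1 CPM in VtA1 to VtA4, against 89.0, 68.5, 80.2 and 39.4 CPM in VLNT1 to VLNT4 and 62.1, 105.8, 99.0 and 13.3 CPM in LE1 to LE4. VtA3 exceeded VLNT4, and the log2 fold change of VtA over VLNT was -1.42 ± 0.57 (SE; unadjusted p = 0.0280, adjusted p = 0.653, edgeR). Ugcg and Cyp4f39 also kept reads where keratin was nearly gone: together they made up 89.9% of the summed TPM of the 8 genes in VtA1 and 94.5% in LE4, against 30.4% or less in each of the other 10 libraries.

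On the CPM scale, all 8 of these genes had lower means in VtA than in VLNT, with a median log2 fold change of -1.58 (-2.18 to -1.36) against -0.07 over all 19740 genes tested. The test called 0 of the 8 (adjusted p = 0.653 to 0.674, edgeR), where it called 0% of all genes, and 1118 genes had an unadjusted p under 0.05. DESeq2 called 0 of the 8 and 153 genes in all (0.796%). Libraries of VtA and VLNT did not overlap in 4 of the 8 (Cers3, Elovl4, Pnpla1 and Cyp4f39), all lower in VtA, against 8.32% of all genes. Krt5 was in the same range, at 699 ± 663 CPM in VtA and 2190 ± 588 CPM in VLNT (log2 fold change -1.65 ± 1.62 SE), as was Krt10 (-1.59 ± 1.41). Krt14 (-3.26 ± 1.86) and Krt1 (-3.03 ± 1.55) differed by more. With the log of the Krt5 plus Krt14 level as a covariate, 5 of the 8 turned positive (Aloxe3 0.65, Cers3 0.22, Elovl4 0.46, Abca12 0.89 and Pnpla1 0.34).

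Relative to Krt5 plus Krt14 the same 8 genes had higher, not lower, mean ratios in VtA. Alox12b had 14.9, 12.2 and 12.6 counts per 1000 keratin counts in VtA2 to VtA4. It had 4.801, 4.17, 5.43 and 12.6 in VLNT1 to VLNT4 and 0.899, 5.22 and 4.805 in LE1 to LE3. VLNT4 reached the VtA range, and the other 3 VLNT libraries lay below it. Elovl4 had 90.5, 97.8 and 94.9 per 1000 in VtA2 to VtA4, against 104.5, 49.6, 66.1 and 83.9 in VLNT1 to VLNT4 and 11.5, 68.7 and 93.9 in LE1 to LE3. Cers3 had 9.71, 7.499 and 7.97 per 1000 in VtA2 to VtA4, against 6.75, 5.05, 4.93 and 7.9 in VLNT1 to VLNT4 and 1.62, 7.59 and 7.48 in LE1 to LE3. In both genes the VtA values overlapped those of VLNT.

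Without VtA1 and LE4, the mean log2 ratio to Krt5 plus Krt14 was higher in VtA than in VLNT for all 8, with a median difference of 1.07 (0.37 for Elovl4 to 1.195 for Aloxe3). Exact two-sided permutation tests, 1 per gene and unadjusted, gave p = 0.0571 to 0.286, where 0.0571 is the smallest p that 3 against 4 libraries allow. Ugcg (1.16) and Cyp4f39 (1.04) did not overlap between the groups, that is 2 of 8, against 73% of all genes that were higher without overlap on this scale. edgeR with the keratin count as the offset called 0 of the 8 over the same 10 libraries (log2 fold change 0.31 to 1.33, median 0.98, adjusted p = 0.148 to 0.737), where it called 74% of all genes, and the median over all genes was 2.69. The difference of the 8 genes was thus nearer to that of the keratins than that of the median gene of the tissue was. Over all 12 libraries the offset fit called 1 of the 8, Ugcg (log2 fold change 8.13, adjusted p = 0.0430), and 85.3% of all genes, and the call was lost without VtA1, which has 11720 Ugcg counts per 1000 keratin counts, and without any single VLNT library.

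The direction on the keratin scale depended on the keratin used. Against Krt14 alone all 8 were higher in VtA than in VLNT (median log2 difference 1.88), with no overlap in 6 of 8 (exact permutation p = 0.0571 each, the smallest possible), where 82.9% of all genes were higher without overlap. Against Krt1 plus Krt10 all 8 were higher by a smaller median, 0.77 (exact permutation p = 0.114 to 0.971). Against Krt5 alone 5 were higher and 3 lower, with a median of 0.19. Cers3 then differed by -0.41 and Elovl4 by -0.52, each without overlap between 3 VtA and 4 VLNT libraries (exact permutation p = 0.0571 each, the smallest possible; 1.42% of all genes were lower without overlap), and Pnpla1 by -0.07. For Degs2 and Pla2g4d the differences ran from -6.67 to -3.95 over these references, in VtA against VLNT and in VtA against LE.

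**Figure D3:**
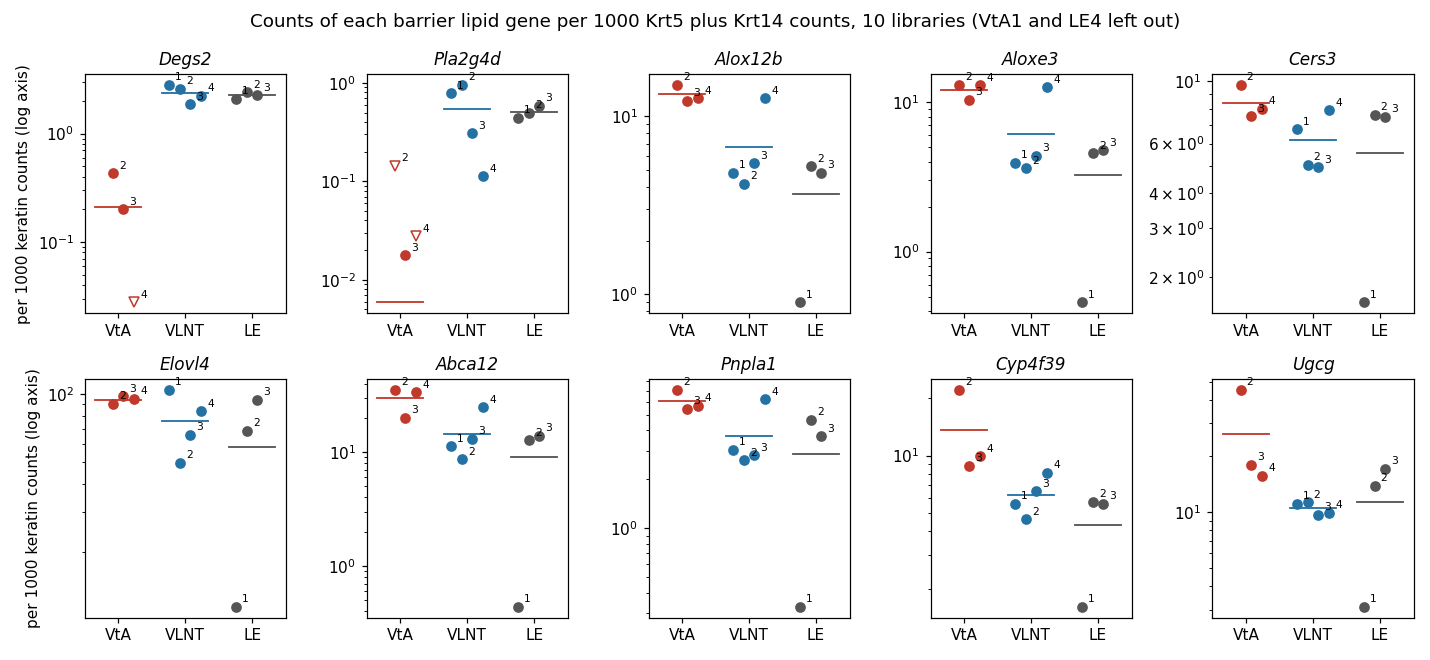
Counts of each gene per 1000 Krt5 plus Krt14 counts in the 10 libraries left after VtA1 and LE4 (log axis; VtA, VLNT and LE from left to right; numbers give the library, lines the group mean, open triangles the level that a count of 0 allows). Degs2 lies lower in VtA than in the other groups. The Pla2g4d counts do too, but the 0 in VtA2 allows up to 0.1435, above VLNT4 at 0.113. The other 8 have higher mean log2 ratios in VtA, with overlap in most, as in Alox12b at 12.2 to 14.9 in VtA against 4.17 to 12.6 in VLNT.

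VtA was also set against LE, a comparison that uses the same VtA libraries as the one above. Degs2 averaged 0.205 ± 0.196 CPM in VtA and 18.5 ± 17.5 CPM in LE (SD, n = 4 each), and VtA overlapped LE through LE4, at 0.38 CPM. The other 8 had lower means in VtA (median log2 fold change -1.202, against -0.11 over all genes), and 0 of 8 passed (adjusted p = 0.288 to 0.863, edgeR), where 0% of all genes were called and 3256 had an unadjusted p under 0.05. DESeq2 called 0 of the 8 and 798 genes in all (4.15%). Without VtA1 and LE4, 2 of the 8 fell, Cers3 (-1.92 ± 0.52 SE, adjusted p = 0.0330) and Ugcg (-1.61 ± 0.42 SE, adjusted p = 0.0308), and 9.25% of all genes were called lower. Cers3 then stood at 12.2 ± 7.31 CPM in VtA and 44.6 ± 12.8 CPM in LE, and Ugcg at 30.0 ± 12.1 CPM in VtA and 89.0 ± 23.5 CPM in LE (SD, n = 3 each). Krt14 fell too in that fit (-3.88 ± 0.95 SE, adjusted p = 0.0259), and so did Krt1 (-2.52 ± 0.77, adjusted p = 0.0450).

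Per Krt5 plus Krt14, all 8 were higher in VtA2 to VtA4 than in LE1 to LE3, with a median log2 difference of 1.76. The exact permutation p was 0.1 to 0.2, and 0.1 is the smallest that 3 against 3 allow. In 5 of the 8 the groups did not overlap, all higher in VtA, against 74.7% of all genes. LE1 carries much of the size of this difference: Alox12b was at 0.899 per 1000 keratin counts in LE1 against 5.22 in LE2, and without LE1 as well the median was 0.86. The edgeR fit with the keratin offset over all 12 libraries called 0 of the 8 and 0% of all genes (649 had an unadjusted p under 0.05), and DESeq2 called 1, Aloxe3 (log2 fold change 4.14, adjusted p = 0.0477), of the 6 genes it gave an adjusted p, against 12.6% of all genes with one.

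**Figure D4:**
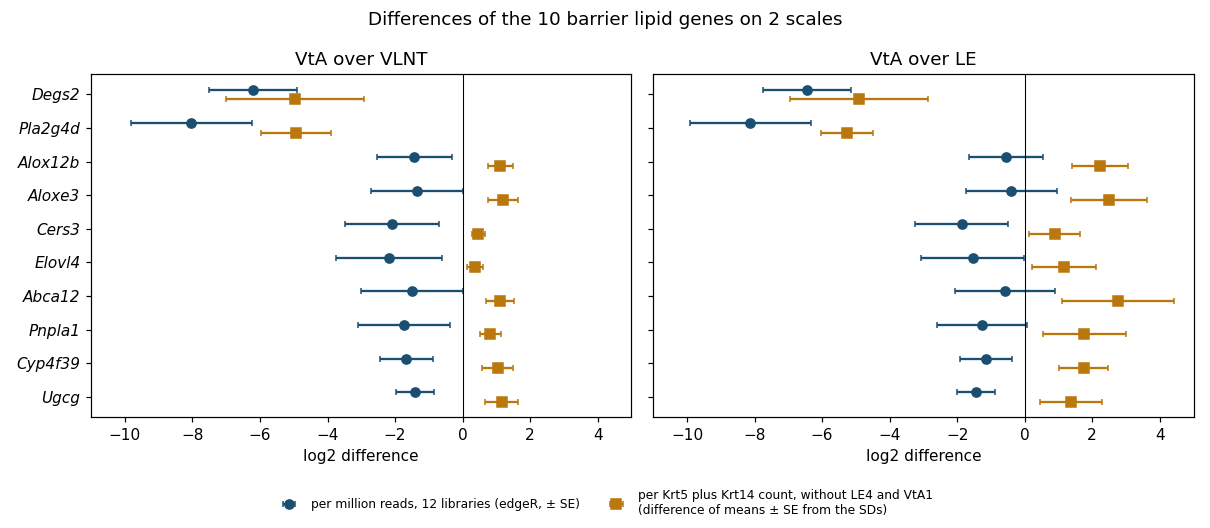
Log2 difference of VtA over VLNT (left panel) and of VtA over LE (right panel) for each gene, in CPM over 12 libraries (circles, edgeR, bars SE) and per Krt5 plus Krt14 count in 10 libraries (squares, difference of mean log2 ratios, bars SE from the SDs). The 8 genes lie left of 0 on the first scale and right of it on the second, while Degs2 and Pla2g4d lie far left on both.

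The comparison of VLNT with LE was not used to choose a member, and none of the 10 genes passed the test in it. The log2 fold change of VLNT over LE was -0.24 ± 1.02 (SE) for Degs2, at 15.6 ± 5.54 CPM in VLNT and 18.5 ± 17.5 CPM in LE. For Pla2g4d it was -0.09 ± 1.21, at 3.76 ± 2.75 CPM in VLNT and 4.005 ± 3.63 CPM in LE (SD, n = 4 each). Of the 10, 7 were higher in VLNT (median 0.50, against 0.01 over all genes) and 0 were called (adjusted p = 0.99992 for each, edgeR), where 0% of all genes were called and 396 had an unadjusted p under 0.05. DESeq2 called 0 of the 10 and 1 gene in all (0.0052%). Without LE4 and VtA1, 6 of 10 were higher and the median was 0.07. The SEs ran from 0.56 to 1.51 on the log2 scale, so differences of that size would not have been detectable here. This comparison uses the same VLNT libraries as that of VtA with VLNT.

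By TPM, which allows levels to be set side by side between genes, Elovl4 led in VLNT at 333 ± 186 TPM, followed by Ugcg at 37.3 ± 14.7, Alox12b at 33.2 ± 10.1 and Cyp4f39 at 30.6 ± 12.7 (SD, n = 4). Cers3 (23.98 ± 8.73 TPM), Degs2 (23.0 ± 9.81), Abca12 (20.8 ± 7.47) and Aloxe3 (18.0 ± 5.43) came next in VLNT, within the spread of their neighbours. Pnpla1 (9.76 ± 2.36 TPM) and Pla2g4d (2.26 ± 1.63) were lowest in VLNT. In VtA, Degs2 stood at 0.229 ± 0.264 TPM, below every member but Pla2g4d (0.00531 ± 0.0106). In LE it stood at 24.7 ± 17.5 TPM, behind Elovl4 and Ugcg and within the spread of Cers3 (24.4 ± 23.9), Cyp4f39 (24.04 ± 21.3) and Alox12b (22.3 ± 22.7).

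Other genes of the pathway were lower in VtA than in VLNT in most cases and 0 of 73 genes in 6 lists passed the test (lowest adjusted p = 0.653, edgeR). Of 15 genes of the ceramide backbone and of acyl transfer, 13 were lower (median log2 fold change -0.88). Sptssb, a small subunit of serine palmitoyltransferase, was at 0.0155 ± 0.0181 CPM in VtA and 0.638 ± 0.733 CPM in VLNT (SD, n = 4 each). Sptlc1, a core subunit, was at 22.3 ± 4.82 CPM in VtA and 41.7 ± 7.35 CPM in VLNT, and Sptssa, another small subunit, was at 48.3 ± 29.3 CPM in VtA and 99.6 ± 38.2 CPM in VLNT. Of 11 genes of very long chain fatty acid synthesis, 10 were lower (median -1.49). The fatty acid transporter gene Slc27a4 was at 32.2 ± 22.4 CPM in VtA and 121 ± 41.1 CPM in VLNT, and Hacd3, a dehydratase of the elongation cycle, at 24.2 ± 8.27 CPM in VtA and 49.9 ± 13.4 CPM in VLNT. Tecr, a reductase of that cycle, was the exception, at 303 ± 36.7 CPM in VtA and 226 ± 53.8 CPM in VLNT.

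Of 15 genes of acylceramide and the lipid envelope, 14 were lower (median -1.49), with Tgm3, an epidermal transglutaminase, at 5.19 ± 7.75 CPM in VtA and 56.0 ± 21.4 CPM in VLNT. The lipoxygenase gene Alox8 was at 0.284 ± 0.312 CPM in VtA and 3.84 ± 5.36 CPM in VLNT, and Alox12e, a lipoxygenase of the mouse epidermis, at 72.5 ± 83.7 CPM in VtA and 77.8 ± 63.4 CPM in VLNT. Of 17 genes that process glucosylceramide and sphingomyelin, 14 were lower (median -0.70). Smpd3, a sphingomyelinase, was at 11.05 ± 7.20 CPM in VtA and 38.6 ± 7.76 CPM in VLNT. Sgms2, a sphingomyelin synthase, was at 4.04 ± 1.66 CPM in VtA and 10.6 ± 7.84 CPM in VLNT, and Psap, the precursor of the saposins, at 845 ± 98.5 CPM in VtA and 764 ± 133 CPM in VLNT. These lists lay below the median of all genes, as the keratins did, and their size was closer to that of the 8 members than to that of Degs2.

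Of the phospholipase genes clustered with Pla2g4d, Pla2g4b differed most, at 1.05 ± 2.05 CPM in VtA and 8.77 ± 5.35 CPM in VLNT (SD, n = 4 each; log2 fold change -3.05 ± 2.11 SE, adjusted p = 0.653, edgeR); it was added after its values were seen. Pla2g4e, the cluster neighbour of Pla2g4d on one side, was at 38.9 ± 9.27 CPM in VtA and 57.4 ± 16.2 CPM in VLNT (log2 fold change -0.56 ± 0.30 SE). Pla2g4f, the neighbour on the other side, was at 9.29 ± 9.20 CPM in VtA and 47.1 ± 12.1 CPM in VLNT (-2.34 ± 1.55), and Pla2g2f, a secreted epidermal phospholipase, at 62.8 ± 60.5 CPM in VtA and 151 ± 38.3 CPM in VLNT (-1.27 ± 1.36). Of 7 other phospholipases A2, 6 were lower (median -1.27). All 8 differentiation factors were lower (median -1.10), among them Klf4 at 78.7 ± 54.9 CPM in VtA and 168 ± 35.8 CPM in VLNT, and Ppard at 25.9 ± 6.10 CPM in VtA and 37.3 ± 11.3 CPM in VLNT.

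Genes with the profile most like each member were ranked by the root mean square difference of centred log2 CPM over the 12 libraries, and give a description only. For Pla2g4d the nearest were Tmprss11a (0.53) and Tmprss11d (0.54), serine proteases of stratified epithelia, then the pseudogene Sprr2j-ps (0.57), Sprr2f (0.72), a cornified envelope precursor gene, and Mmp10 (0.76), a matrix metalloproteinase gene. For Degs2 they were Serpina9 (1.06), Tmprss11d (1.09), Tmprss11a (1.10), Mmp10 (1.10) and Olah (1.18), the last encoding a fatty acid thioesterase. Tmprss11d was at 0 CPM in all 4 VtA libraries and in LE4, and at 0.601 to 3.69 CPM in VLNT and 2.03 to 5.99 CPM in LE1 to LE3. For the mean profile of the other 8 they were Ptk6 (0.27), Epha1 (0.28), Inava (0.28), Cdh1 (0.31), which encodes E-cadherin, and Aspm (0.35). These distances cannot be set beside those of Degs2 and Pla2g4d, because a mean over genes varies less than a single gene. Cdh1 had 1.23, 24.8, 107 and 98.9 CPM in VtA1 to VtA4, against 157, 80.5, 197 and 146 CPM in VLNT1 to VLNT4 and 84.7, 250, 129 and 0.359 CPM in LE1 to LE4. Between members, Degs2 and Pla2g4d lay 1.04 apart on this measure, Cyp4f39 and Ugcg 0.71, and Aloxe3 and Pnpla1 0.36.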

How the data were processed

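RNA from mouse hindlimb was flash frozen, extracted with Trizol and made into polyadenylated, stranded TruSeq libraries, per the labels' protocols. The submitters' processing notes name HISAT2 2.1.0, StringTie 2.1.3b, Trimmomatic and bcl2fastq 2.20.0, and they list mm10 and GRCh38 as builds with no role stated. Not given in the sources used here were the annotation, the strand setting and the treatment of multiply mapped reads. Per the file headers, the table deposited by the authors holds raw read counts per gene, FPKM and TPM. The FPKM values deposited by the authors were not used, and the deposited TPM values served for levels between genes, marker sums and an alternative test.

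All 12 libraries entered 1 fit of group means of the counts with edgeR 4.0.16 in R 4.3.3: TMM scaling, default filter on low counts (19740 genes left, at least 99.87% of each library's counts), quasi-likelihood test, Benjamini-Hochberg adjustment over all genes, calls at an adjusted p under 0.05. All 10 members passed the filter. CPM were taken with TMM-adjusted library sizes. A second fit used the log of the Krt5 plus Krt14 count as offset. It is dominated by VtA1 and LE4, so exact permutation tests over samples on log2((count + 0.5) / keratin count), and the single keratins as references, were added after the data were seen. All tests were 2-sided, and the edgeR procedure was run on simulated data. Those data had a smaller spread than these libraries, and scarce keratin counts were raised in them. They therefore cannot show how the offset fit behaves with VtA1 and LE4. Alternatives used DESeq2 1.42.0 and limma 3.58.1. Intervals (exact, 95%) and limits from a count of 0 (3 counts) cover counting error only. Within groups, 18 library pairs were compared and none was identical or near it (smallest chi-square 118 per degree of freedom).

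The members and gene lists were chosen with earlier results of these data known. All members and the keratins are named. Of each pathway list the 2 genes with the smallest p in VtA against VLNT and the 1 with the highest mean TPM are named, and for each profile the 5 most alike genes. Promoters come from RefSeq.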

Additional observations from a re-analysis of the deposited data

Results flagged for a closer look

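Within each group of 4 libraries, the highest or lowest value of a gene was picked out where its gap to the nearest other library exceeded Dixon's 95% critical value as a share of the group's range. The 60 groups of values, less Pla2g4d in VtA on both scales (3 counts or fewer in every library), were examined, and 17 values were picked out. Chance picks out about 1 in 20 where values are independent. Ratios in the same library share a keratin count and are not independent. On the CPM scale there was 1: Pnpla1 in VLNT2, at 15.9 CPM against 23.3 to 24.6 CPM in the other 3 VLNT libraries.

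The other 16 were counts per 1000 Krt5 plus Krt14 counts. In VtA1, with 47 keratin counts, Degs2 stood at 148.9, Alox12b at 255.3, Aloxe3 at 191.5, Cers3 at 170.2, Elovl4 at 531.9, Abca12 at 255.3, Pnpla1 at 127.7, Cyp4f39 at 1511 and Ugcg at 11720, each above the other 3 VtA libraries. In LE4, with 138 keratin counts, Degs2 stood at 130.4, Alox12b at 188.4, Cyp4f39 at 920.3 and Ugcg at 4572, each above LE1 to LE3. In VLNT4, which held 256567 keratin counts, Alox12b stood at 12.57 against 4.17 to 5.43 in the other 3 VLNT libraries, Aloxe3 at 12.55 against 3.599 to 4.36, and Pnpla1 at 6.22 against 2.62 to 3.04.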

How the results depend on the processing

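Keratin was almost missing from 1 library of VtA and 1 of LE, which limits every value per keratin count. What limits the calls was not tested. Replicate numbers did not pair the samples (same-number correlations -0.43 to 0.56), so the numbers are only names.

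On CPM, edgeR called 0 genes in VtA against VLNT and 0 in VtA against LE. DESeq2 called 153 genes in VtA against VLNT, 798 in VtA against LE and 1 in VLNT against LE. A fit of only the groups compared called 1 gene in VtA against VLNT. Without LE4 and VtA1, 1 gene was called in VtA against VLNT and 4004 in VtA against LE, with 2 of the 8 members. With single libraries left out, the counts were 0 to 10 in VtA against VLNT, 0 to 6288 in VtA against LE, and 0 to 1 of the 8 members there, the highest without LE4 in each case. In VtA against LE with single libraries left out, Aloxe3 moved between -0.90 and 0.090 and Abca12 between -1.17 and 0.00068.

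With the keratin covariate, log2 fold changes turned positive in VtA against VLNT for Aloxe3 (0.65), Cers3 (0.22), Elovl4 (0.46), Abca12 (0.89) and Pnpla1 (0.34). In VtA against LE they turned positive for Alox12b (0.53), Aloxe3 (1.64), Cers3 (0.51), Elovl4 (1.04), Abca12 (1.73) and Pnpla1 (0.79), and in VLNT against LE for Pla2g4d (0.11).

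In VLNT against LE the signs of small differences turned. Degs2, Pla2g4d and Ugcg were at 1.19, 0.34 and 0.46 with limma on log2(TPM + 0.1), at 0.65, 0.016 and 0.40 with log2(TPM + 1), and at 0.71, 0.71 and 0.13 with the replicate block. Cers3 was at -0.21 without LE4 and VtA1. With single libraries left out the ranges were -0.65 to 0.56 for Degs2, -0.50 to 0.64 for Pla2g4d, -0.38 to 0.23 for Ugcg and -0.21 to 0.61 for Cers3.

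Per Krt5 plus Krt14, VtA against VLNT called 16835 genes and 1 of the 8 members. The members called were 0 with no filter on low counts, 0 with DESeq2 (3420 genes), which gave no adjusted p for Ugcg and Cyp4f39, 0 with limma on TPM ratios (0 genes), 0 with Krt1 plus Krt10 as the reference (0 genes), 0 with the replicate block (0 genes) and 0 without LE4 and VtA1. With single libraries left out, 0 to 17643 genes and 0 to 2 members were called, with 0 of both without VtA1 or without any VLNT library. In VtA against LE, where 0 genes were called, DESeq2 called 557 and 1 member, the fit without LE4 and VtA1 called 14189, and single libraries left out gave 0 to 17549 genes and 0 to 2 members, the highest without LE4. In VLNT against LE, also at 0, DESeq2 called 2743, Krt1 plus Krt10 as the reference 15796, the fit of only the groups compared 15335, the fit without LE4 and VtA1 5, and single libraries left out 0 to 16927 genes and 0 to 1 member, the highest without VtA1.

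Signs per keratin turned as follows. With Krt1 plus Krt10 as the reference, Elovl4 was at -0.22 in VtA against VLNT, Alox12b at -0.92, Cyp4f39 at -1.71 and Ugcg at -1.37 in VtA against LE, and Pla2g4d at -0.82 in VLNT against LE. With Krt5 alone and without LE4 and VtA1, Cers3 was at -0.41, Elovl4 at -0.52 and Pnpla1 at -0.068 in VtA against VLNT, and Cers3 at -0.51, Elovl4 at -0.23 and Ugcg at -0.026 in VtA against LE. With single libraries left out, Alox12b ranged from -1.87 to 4.24, Cyp4f39 from -4.09 to 6.47 and Ugcg from -5.44 to 8.02 in VtA against LE, the lowest without VtA1. In VLNT against LE the ranges were -4.21 to 0.075 for Degs2, -3.35 to 0.89 for Alox12b, -5.64 to 0.53 for Cyp4f39 and -0.23 to 0.53 for Pla2g4d, and without LE4 and VtA1 together Degs2 was at 0.075, Alox12b at 0.89 and Cyp4f39 at 0.53. There DESeq2 gave -0.083 for Pla2g4d, and limma on TPM ratios gave -2.17 for Pla2g4d, -0.078 for Aloxe3, -0.71 for Cers3 and -0.64 for Pnpla1. The causes were not tested beyond the libraries named. Degs2 and Pla2g4d were lower in VtA than in VLNT under each CPM alternative run. That is no added support, because both genes were chosen for low CPM and TPM in VtA. In the edgeR fit per keratin, Degs2 in VtA over VLNT moved between -3.52 (without VtA1) and 4.30 with single libraries left out. It was at -0.89 with limma on TPM ratios, -0.98 with the replicate block and -0.25 with Krt1 plus Krt10 as the reference. Pla2g4d was at 1.48 with limma on TPM ratios. In VtA over LE, the edgeR fit per keratin put Degs2 at 0.030 over all 12 libraries. With single libraries left out, Degs2 there moved between -7.31 (without VtA1) and 3.80 (without LE4).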
